A study of Homo sapiens with 9 samples.

Results

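The libraries labelled SM4 were compared with the libraries labelled SM2, 3 of each out of the 9 libraries of the series, and the members of the comparison were taken from the sample titles alone. By the cell line field of the labels, all 9 were made from OVCAR5, an established human ovarian cancer cell line. They hold polyadenylated RNA of lines that were kept under puromycin after lentiviral transduction. SM2 and SM4 both carry, by their labels, a knockdown of METTL3, and NC is the control, given as parental cells in the labels and as cells with a control hairpin in the methods of the study. Every library is a selected cell population whose number of independent transductions is not given.

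The labels limit these groups as a model in several ways. They do not tell which METTL3 hairpin is in SM2 and which in SM4, and they do not say whether the 3 libraries of a group were separate cultures, so p-values measure only the spread between these libraries, which may be technical. A source field names OVCAR6, OVCAR7 and OVCAR8 for the 3 libraries labelled SM4, whereas another field names OVCAR5 as the line of every library. This conflict was not tested, because the markers read here are of cell types and not of single lines. EPCAM, KRT7, KRT8, KRT18, KRT19, CDH1, PAX8, MUC16 and WFDC2, taken here as markers of ovarian cancer epithelium, were all above 1 CPM (counts scaled to the library total) in every group. Leukocyte markers summed to 5.54 to 11.1 CPM and came almost wholly from CD14, while PTPRC, CD3D, CD2 and MS4A1 were at or near 0. Of the fibroblast markers, COL1A1 was the 1 above 1 CPM. Of the endothelial markers PECAM1 was the 1 above it in every library, CLDN5 was at 0.70 to 1.17 CPM, and CDH5 and KDR were at or near 0. In bulk RNA, fewer cells expressing a gene and less of its RNA per cell cannot be told apart.

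The count table held 60649 genes, of which 19674 had enough counts to be tested. Totals were 46011123 to 52630857 counts in the libraries labelled SM2 and 50745778 to 63693728 in those labelled SM4. The third library labelled SM2 stood apart. A chi-square test of counts per gene gave 16.8 and 13.9 per degree of freedom against the other SM2 libraries, where all other pairs within a group gave 4.23 to 6.10. In that library the shortest quintile of protein-coding genes lay 0.11 above, and the longest quintile 0.12 below, the other SM2 libraries on the log2 scale. Results that move with it are given with and without it. Levels below are CPM after scaling by the trimmed mean of M values (TMM), fold changes are SM4 over SM2 unless turned round in the sentence, and adjusted p-values come from the quasi-likelihood test of edgeR with the Benjamini-Hochberg method over all 19674 genes. Genes with an adjusted p below 0.05 are described as called. Where a gene overlaps another on the opposite strand, reads of the pair cannot be told apart, because the use of strand in counting is not stated. Of the genes given below with their level in each library this holds for METTL3, IGF2BP3, OAS1, MX1, CXCL5, IL6, HMGCS1, CFTR, ANO1, EGFR, LOXL2, ZEB1, FOXJ1, SLC7A11, ADAMTS9, HLA-G, VIM and VIM-AS1. It also holds for many of the genes given by a fold change alone, among them XAF1, IRF9, EIF2AK2, ISG15, LSS, LYZ, SREBF2, PMP22, LOX, SNAI2, LOXL1, SPARC, KRT13, KRT23, CYLD, F10 and C5.

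N6-methyladenosine (m6A) is a methyl mark on adenosines of messenger RNA. METTL3 is the catalytic subunit of the nuclear complex that writes it, METTL14 binds the RNA substrate beside it, WTAP, VIRMA, ZC3H13, RBM15 and CBLL1 place and hold the complex, FTO and ALKBH5 remove the mark, and YTH and IGF2BP proteins bind marked transcripts. The mark affects how long transcripts last and how they are translated, and its loss is known in other systems to let endogenous double-stranded RNA trigger interferon signalling.

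METTL3 (ENSG00000165819.12, chr14:21498133-21511342, GRCh38, minus strand), the gene that is knocked down in both groups by their labels, was measured first. Its level was 37.1, 39.8 and 40.01 CPM in the libraries labelled SM2 and 60.6, 57.5 and 62.4 CPM in those labelled SM4. The NC libraries held 36.2, 34.4 and 36.6 CPM. No library labelled SM4 overlapped with any of the other 6, and every library labelled SM2 lay above every NC library. The mean in SM4 was 60.2 ± 2.48 CPM (SD, n = 3) against 38.95 ± 1.64 CPM (SD, n = 3) in SM2, 1.54-fold higher (log2 fold change 0.63, standard error 0.0538, adjusted p = 7.46e-08, edgeR). The target gene thus went against the label of knockdown in both groups. Whether the labels NC, SM2 and SM4 match the hairpins the cells carry is therefore in doubt, and they may be exchanged. If so, a group compared here as a knockdown may be the control. The group names below are those of the labels, and no difference can be read as an effect of lowering METTL3.

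The other m6A genes differed little. Of the 20 genes of the list, METTL3 was called higher and IGF2BP3 lower in SM4, while 18 were not called. For scale, 12.8% of all tested genes were called, 6.04% higher and 6.76% lower in SM4. Over protein-coding genes alone 7.99% were higher and 8.80% lower. IGF2BP3, a reader that stabilises bound transcripts, measured 114, 112 and 99.2 CPM in SM2 and 89.99, 90.4 and 90.7 CPM in SM4, without overlap, a fall of 1.20-fold (log2 fold change -0.26, adjusted p = 0.00151). METTL14 measured 31.4, 31.9 and 28.9 CPM in SM2 and 27.2, 28.2 and 27.1 CPM in SM4 and did not pass the test (adjusted p = 0.0848), although its libraries did not overlap and it passed once the third SM2 library was left out. VIRMA (log2 fold change -0.13, adjusted p = 0.116), ZC3H13 (-0.10, 0.129), RBM15 (0.20, 0.179) and the reader YTHDF1 (0.13, 0.052) were likewise not called. Neither eraser was called, at log2 fold changes of -0.10 for FTO and -0.06 for ALKBH5. Of 23 other methyltransferases of the METTL type, 1 was called, lower in SM4.

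**Figure D1:**
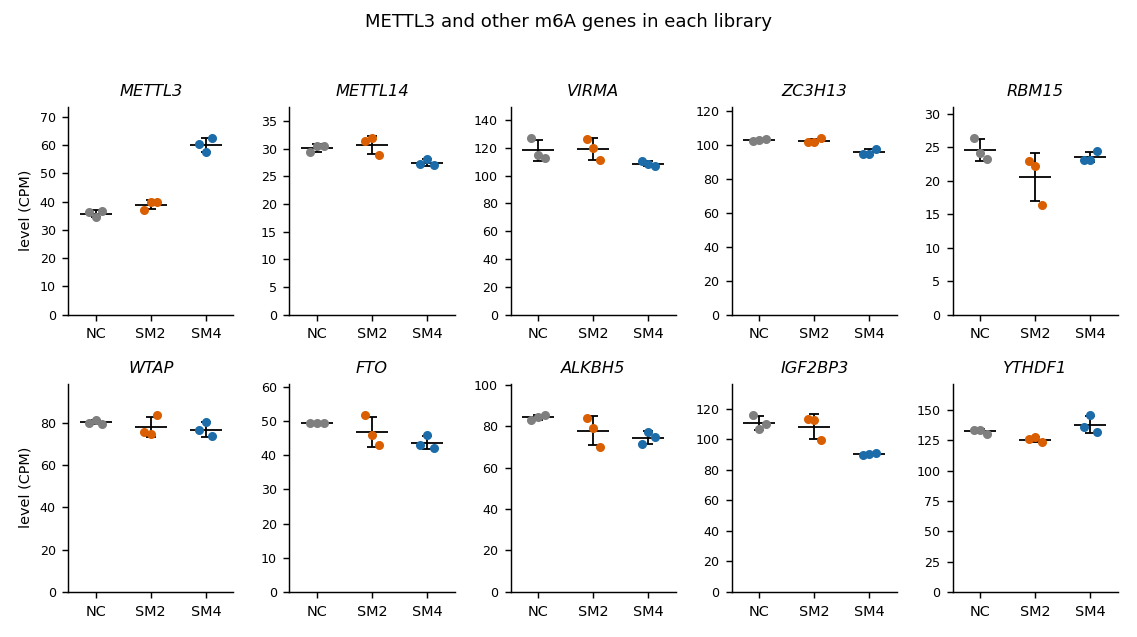
Level of METTL3 and 9 other m6A genes in CPM (vertical axis, from 0) in each of the 9 libraries by label, with a point per library, a horizontal line at the mean and bars of 1 SD (n = 3). METTL3 was at 57.5 to 62.4 CPM in the libraries labelled SM4 and at 34.4 to 40.01 CPM in the other 6, while the other genes differed by far less.

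Across all genes, 2518 were called between the groups, 1188 with more and 1330 with less RNA in the libraries labelled SM4. Most differences were small. The median absolute log2 fold change of called genes was 0.29, 464 genes passed 1.5-fold (194 higher, 270 lower), and 155 passed 2-fold (63 higher, 92 lower), which is 0.788% of the genes tested. In 5 of those 155 one group held fewer than 4 counts in all. The 3 libraries of SM4 lay above the 3 of SM2 for 13.7% of tested genes and below them for 14.6%, and 2452 of the 2518 called genes were among these. By fold change, 171 called genes rose by more than METTL3. Leaving out the first library labelled SM4 lowered the count of called genes to 1574.

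The genes that differed most upward formed no single family. CAPN6, which encodes a calpain without protease activity, led with 0.241, 0.312 and 0.4905 CPM in SM2 and 3.12, 3.07 and 3.45 CPM in SM4 (9.07-fold, log2 fold change 3.18, adjusted p = 9.10e-08). NC held 0, 0.0736 and 0.0683 CPM, the lowest of the 3 groups. Of the 15 highest genes with a mean of at least 1 CPM, 5 were interferon-stimulated (XAF1, IFI44L, IFI6, IFI27 and MX1). Others were the sulfatase ARSI (log2 fold change 1.91), the heparan sulfate proteoglycan SDC2 (1.78), the glucuronosyltransferase UGT1A10 (1.74), the calcium channel subunit CACNA1D (1.47), the retinal dehydrogenase ALDH1A1 (1.26) and the proteoglycan SPOCK1 (1.23). ALDH1A1, used as a marker of stem-like ovarian cancer cells, was at 5.32, 4.85 and 5.68 CPM in SM2 and 13.3, 12.1 and 12.7 CPM in SM4, and NC, at 12.7, 12.9 and 12.3 CPM, overlapped with SM4. UGT1A10 shares exons with other UGT1A genes, so its counts are uncertain. TRIM17, MAMDC2 and UBXN10 completed the 15. Among genes with a mean of at least 100 CPM the largest rises were those of IFI27, the chloride channel ANO1 (1.65-fold), the growth factor FGF19 (0.68 on the log2 scale), OAS3, the protease inhibitor CST6 (1.56-fold), the pseudogene FER1L4 (1.52-fold), the aldehyde dehydrogenase ALDH3A1 (1.51-fold) and the protocadherin PCDH1 (1.51-fold).

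Downward, the largest differences were in secreted signals and their antagonists, a chloride channel and the vimentin locus. CFTR, the cAMP-gated chloride channel of epithelia, was at 5.74, 5.33 and 5.57 CPM in SM2 and 0.971, 1.297 and 1.17 CPM in SM4, with 3.19, 3.15 and 3.78 CPM in NC (4.83-fold lower in SM4, log2 fold change -2.27, standard error 0.151, adjusted p = 1.87e-09). The 3 groups did not overlap, and NC lay between the others. VIM-AS1, an RNA antisense to vimentin, was lowest by fold (log2 fold change -3.17). Others among the lowest were CFTR, the binding protein of insulin-like growth factors IGFBP5 (log2 fold change -2.12), the ligand BMP2 (-2.05), the adhesion scaffold NEDD9 (-1.77), the calcium-binding TESC (-1.76), CXCL5 (-1.63), VIM (-1.61), the BMP antagonist NOG (-1.60), the chemokine PPBP (-1.53), the Notch-binding DNER (-1.52), GFPT2 of the hexosamine pathway (-1.47), HCLS1 (-1.47) and the hormone STC1 (-1.44). All of these lay below SM2 in every library labelled SM4, as the rule for naming them asks. Among genes with a mean of at least 100 CPM the leading falls were those of CCL28, CXCL3, the phospholipid-binding ANXA5 (1.696-fold), the heparan sulfate polymerase EXT1 (1.67-fold), the immunoglobulin transporter PIGR (1.62-fold), CXCL1, the mucin glycosyltransferase GCNT3 (1.54-fold) and the caveolar coat protein CAV1 (1.52-fold).

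Among the lists with at least 10 tested genes, the interferon response had the highest share of genes raised in SM4. Type I interferons signal through STAT2 and IRF9, among others, to genes whose products sense, cut or block viral RNA. Of 77 members, all of which were tested, 40 were raised and 5 lowered in the SM4 libraries, and 32 were not called. That is 52.0% called higher, against 6.04% of all genes tested, with a median log2 fold change of 0.26 against 0.00 for all genes. Without the third SM2 library 46 were higher and 5 lower, without the first SM4 library 40 and 3, and over the other fits the number called higher stayed between 38 and 46. The list was chosen with earlier results of these data known.

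Effectors of double-stranded RNA rose most uniformly, with 6 of 7 members higher. The oligoadenylate synthetases make a messenger that sets off the decay of RNA. OAS1 was at 36.9, 33.7 and 34.96 CPM in SM2 and 53.2, 56.96 and 54.2 CPM in SM4 (1.56-fold higher, adjusted p = 1.14e-07). OAS2 was at 3.28, 3.54 and 3.66 CPM in SM2 and 6.68, 8.26 and 6.36 CPM in SM4 (log2 difference 1.02, adjusted p = 2.24e-05). OAS3 was at 217, 214 and 189.7 CPM in SM2 and 322, 338 and 322 CPM in SM4 (log2 difference 0.66, adjusted p = 1.27e-08). None of the 3 genes overlapped between the groups. The RNA-activated kinase gene EIF2AK2 rose by 1.35-fold and ADAR, whose product edits and so masks double-stranded RNA, by 1.19-fold.

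Antiviral effectors held the largest changes, with 23 of 40 higher and 4 lower. IFI27 (ENSG00000165949.12, chr14:94104836-94116695), which encodes a small mitochondrial protein, was at 60.9, 59.8 and 73.01 CPM in SM2, 176, 202 and 187 CPM in SM4 and 60.2, 61.1 and 63.5 CPM in NC. SM4 stood clear of both other groups, which overlapped with each other (2.92-fold over SM2, log2 fold change 1.54, standard error 0.0655, adjusted p = 1.42e-12). MX1, a GTPase that traps viral nucleocapsids, showed the same arrangement at 24.6, 27.1 and 29.5 CPM in SM2, 66.4, 70.6 and 63.2 CPM in SM4 and 26.4, 25.6 and 27.5 CPM in NC (2.46-fold, adjusted p = 2.30e-11). IFI6 was at 13.8, 15.02 and 18.4 CPM in SM2 and 45.8, 53.5 and 45.1 CPM in SM4 (3.06-fold, adjusted p = 3.72e-10). The helicase-like DDX60 was at 11.03, 11.5 and 9.45 CPM in SM2 and 20.1, 21.1 and 17.8 CPM in SM4 (1.85-fold, adjusted p = 4.42e-07). XAF1, IFI44L and EPSTI1 rose from levels near or below 2 CPM (3.66-fold, 3.304-fold and 3.01-fold). Against the direction of the list, IFIT2 (log2 fold change -0.40), GBP2 (-0.31), IFITM2 (-0.30) and the lipid-binding APOL1 (-0.19) fell.

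Sensors and signal carriers moved less. The cytosolic RNA sensors IFIH1 (1.21-fold) and DHX58 (1.39-fold) rose and the other 6 members of their group were not called. Of the 11 signalling genes 4 rose, among them STAT2 (1.19-fold, 40.2 to 48.1 CPM), IRF7 (1.48-fold) and IRF9 (1.747-fold). In the ubiquitin-like ISG15 pathway and the PARP family, 5 of 11 rose, including ISG15 (1.24-fold), PARP9, PARP14 and PARP12. USP18, the protease that removes ISG15 and damps the receptor, fell (log2 fold change -0.62, adjusted p = 0.0178), a call lost in 3 of the 17 other fits. MHC class I genes, which interferon also raises in many cells, did not follow, with 1 of 19 higher (ERAP2, 0.34) and 1 lower (HLA-F, -0.25).

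**Figure D2:**
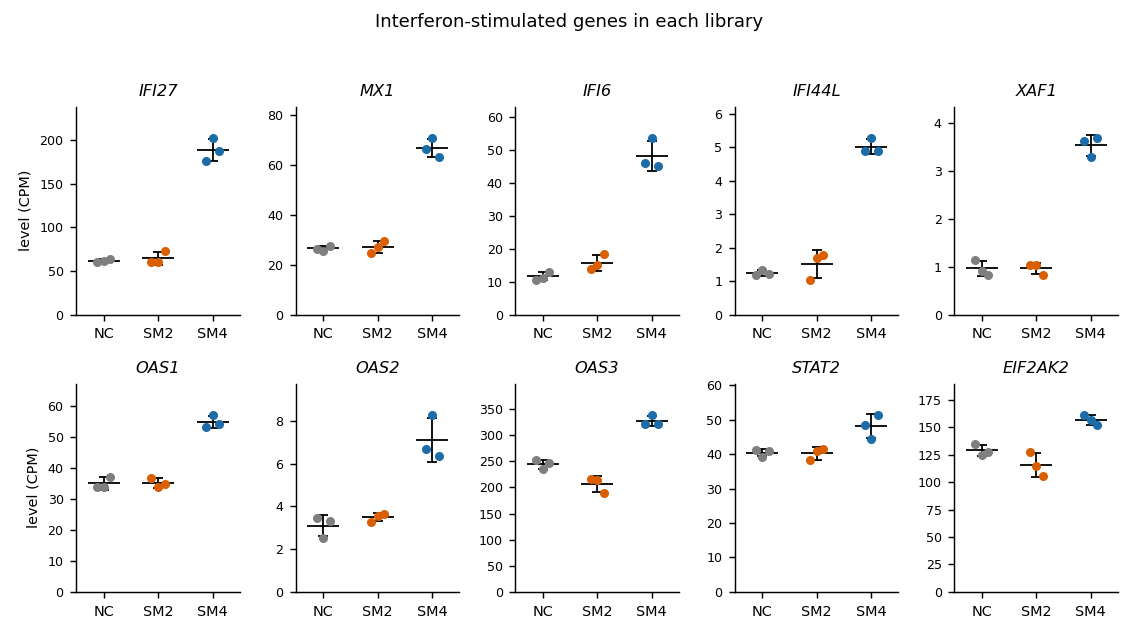
Level in CPM (vertical axis, from 0) of 10 interferon-stimulated genes in each library by label, with a point per library, a line at the mean and bars of 1 SD (n = 3). All 3 libraries labelled SM4 lie above every library of the other labels, for example IFI27 at 176 to 202 CPM against 59.8 to 73.0 CPM.

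The promoters of these genes are shown because their members moved together. Sequences of 250 bases before to 50 bases after the transcript start came from RefSeq (GRCh38.p14) for 54 of the 77 members by symbol, and were searched on both strands for AAANNGAAA, the core of interferon-stimulated response elements. It was found in 38 of the 54 (70.4%), in 25 of 33 members called higher (75.8%), in 10.6% of all 27305 promoters and in 7.20% of those of tested genes. The shorter AANNGAAA, which includes every such match, was in 44 of the 54 and 23.2% of all promoters. The promoters of IFI6 (chr1:27672143-27672442, minus strand), IFI27 (chr14:94110486-94110785, plus strand) and DDX60 (chr4:168318703-168319002, minus strand), with the matches in capitals and 5′ to 3′ in the direction of the gene, read as follows.
IFI6: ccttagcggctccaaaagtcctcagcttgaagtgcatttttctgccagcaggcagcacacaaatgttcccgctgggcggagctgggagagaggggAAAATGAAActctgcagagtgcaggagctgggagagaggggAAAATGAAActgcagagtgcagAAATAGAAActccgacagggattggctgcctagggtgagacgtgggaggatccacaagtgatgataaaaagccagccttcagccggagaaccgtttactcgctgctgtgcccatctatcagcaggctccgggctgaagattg
IFI27: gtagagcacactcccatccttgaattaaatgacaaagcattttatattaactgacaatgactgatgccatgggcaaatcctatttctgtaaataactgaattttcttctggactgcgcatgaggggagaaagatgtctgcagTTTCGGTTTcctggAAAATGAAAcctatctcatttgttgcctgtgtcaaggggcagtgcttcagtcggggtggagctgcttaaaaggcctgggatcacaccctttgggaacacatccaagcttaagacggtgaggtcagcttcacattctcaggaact
DDX60: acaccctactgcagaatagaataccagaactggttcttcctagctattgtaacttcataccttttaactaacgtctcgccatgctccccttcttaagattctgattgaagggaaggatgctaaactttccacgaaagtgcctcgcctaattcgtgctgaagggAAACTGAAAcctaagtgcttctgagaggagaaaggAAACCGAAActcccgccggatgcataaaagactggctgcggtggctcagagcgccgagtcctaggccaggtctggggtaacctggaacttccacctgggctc
The IFI6 matches start 155, 114 and 92 bases before the transcript start, those of IFI27 at 108, on the reverse strand, and at 94, and those of DDX60 at 87 and 52. A match is a description of letters and not a bound site.

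Chemokines moved the other way. These small secreted proteins attract leukocytes, those with a CXC motif mainly neutrophils, and many are made by tumour epithelium under NF-kB. Of 14 chemokine genes tested 8 were lower and 0 higher in SM4 by edgeR, and 0 were higher at an unadjusted p below 0.05 or by DESeq2. Of 14 cytokines tested 4 were lower and 2 higher. Over the whole list of 31 genes, of which 28 were tested, 42.9% were called lower, against 6.76% of all genes, and the median log2 fold change was -0.27. Leaving out the third SM2 library left these counts at 12 lower and 2 higher.

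CXCL5, a neutrophil attractant, was at 90.9, 79.4 and 85.8 CPM in SM2, 28.6, 28.2 and 25.9 CPM in SM4 and 51.8, 49.3 and 51.4 CPM in NC. The 3 groups were apart with NC in the middle (3.095-fold lower in SM4 than in SM2, log2 fold change -1.63, standard error 0.05805, adjusted p = 1.12e-13). CCL28, a mucosal chemokine that attracts lymphocytes and plasma cells, was at 282, 279.7 and 281 CPM in SM2, 116, 116 and 109 CPM in SM4 and 268, 248 and 248.9 CPM in NC (2.47-fold, adjusted p = 1.12e-13). CXCL3 was at 179, 174 and 190.2 CPM in SM2 and 87.2, 90.02 and 87.5 CPM in SM4 (2.05-fold, adjusted p = 2.49e-12), with NC at the level of SM2. CXCL1 (1.57-fold), CCL20 (1.55-fold), CXCL2, CXCL8 (1.42-fold) and CXCL6 also fell, none with overlap. PPBP, which lies in the same chromosome 4 cluster and was named by rank rather than by the list, was at 113, 107 and 124 CPM in SM2 and 39.02, 41.3 and 38.4 CPM in SM4 (2.895-fold lower). CXCL1, CXCL2 and CXCL3 are close paralogs, so reads shared among them may have been split or dropped.

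Among cytokines, IL32 (1.695-fold), IL1A, CSF1 and CSF2 fell. IL6 rose from 1.598, 1.04 and 1.38 CPM in SM2 to 2.76, 2.96 and 2.77 CPM in SM4 (2.12-fold, adjusted p = 7.71e-05), while the 3 NC libraries were higher than both, at 4.77, 4.62 and 4.83 CPM. IL1B also rose (log2 fold change 0.28, adjusted p = 0.0347), but that call was lost in 7 of 17 other fits. TNF, at 1.12 and 0.674 CPM on average, was not called (adjusted p = 0.0554). Of 17 genes for NF-kB subunits, inhibitors and targets, 5 were lower by edgeR and 0 higher by edgeR, at an unadjusted p below 0.05 or by DESeq2. Those that fell included NFKB2 (log2 fold change -0.22), TNIP1 (-0.28) and the deubiquitinase gene CYLD (-0.23). Without the first SM4 library 2 were called lower, and without the third SM4 or the second SM2 library 3 were.

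The chemokine promoters were searched for GGAATTTCC, a kappa-B-type motif picked after the data were seen. It was in 6 of the 8 promoters of chemokines called lower and in 8 of the 10 chemokine promoters in the table, against 0.472% of all promoters (129 of 27305). The paralogs share sequence, so these are not independent matches. The promoters of CXCL5 (chr4:73998628-73998927, minus strand) and CXCL3 (chr4:74038640-74038939, minus strand), which fell most among CXC genes of the list, are shown with the match in capitals.
CXCL5: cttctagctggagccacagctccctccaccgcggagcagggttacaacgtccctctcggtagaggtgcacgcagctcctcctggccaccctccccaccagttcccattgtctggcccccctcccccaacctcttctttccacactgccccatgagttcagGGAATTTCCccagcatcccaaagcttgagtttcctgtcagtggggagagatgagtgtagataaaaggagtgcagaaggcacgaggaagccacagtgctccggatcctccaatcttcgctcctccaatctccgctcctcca
CXCL3: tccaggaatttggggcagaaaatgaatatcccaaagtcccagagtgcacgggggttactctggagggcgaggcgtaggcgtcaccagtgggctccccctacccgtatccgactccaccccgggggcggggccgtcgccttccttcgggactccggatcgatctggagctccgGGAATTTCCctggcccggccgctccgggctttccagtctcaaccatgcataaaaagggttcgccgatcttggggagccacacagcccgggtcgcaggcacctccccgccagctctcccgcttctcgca
The match starts 90 bases before the transcript start in CXCL5 and 78 before it in CXCL3.

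Cholesterol synthesis had the highest share of genes lowered in SM4 among the lists examined. When sterols run low, the SREBP2 factor is released from the endoplasmic reticulum, where INSIG1 holds it, and turns on the enzymes of the mevalonate pathway. Of 26 members 1 had too few counts, and of the 25 tested, 20 were lower and 3 higher (80.0% called lower against 6.76% of all genes), with a median log2 fold change of -0.32. Between 19 and 21 were called lower over all other fits, and 19 without the third SM2 library.

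INSIG1 (ENSG00000186480.13, chr7:155297776-155310235) was at 89.3, 81.9 and 88.7 CPM in SM2, 48.9, 52.8 and 48.3 CPM in SM4 and 49.2, 48.8 and 46.4 CPM in NC (1.73-fold lower in SM4 than in SM2, log2 fold change -0.79, standard error 0.0525, adjusted p = 1.87e-09). Here SM4 and NC overlapped and SM2 stood above both. HMGCS1, an early enzyme of the mevalonate pathway, fell from 192, 176 and 159 CPM in SM2 to 118, 117 and 114 CPM in SM4 (1.51-fold, adjusted p = 1.87e-07). The demethylation enzyme gene MSMO1 fell by 1.51-fold, the cyclase LSS by 1.43-fold, and SREBF2, which encodes SREBP2 itself, by 1.16-fold. PMVK of the mevalonate pathway (1.46-fold) and the cholesterol exporters ABCA1 (1.22-fold) and ABCG1 (1.29-fold) rose instead. Of 30 fatty acid genes 9 were lower and 2 higher, led by falls of ACSL1 (log2 fold change -0.56), the desaturase SCD (-0.42), ACSS2 (-0.35) and ELOVL5 (-0.31). The sterol-type motif TCACNCCAC was in 1 of 19 promoters of the cholesterol list and 1.15% of all promoters.

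**Figure D3:**
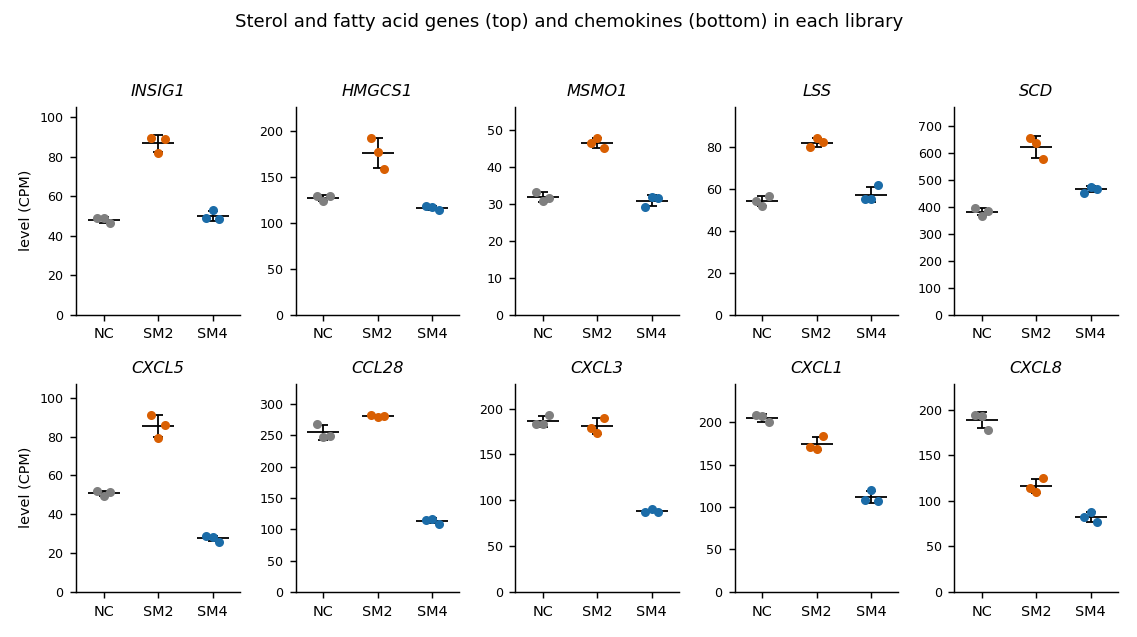
Level in CPM (vertical axis, from 0) of 5 sterol and fatty acid genes (top) and 5 chemokines (bottom) in each library by label, with a point per library, a line at the mean and bars of 1 SD (n = 3). For the sterol genes SM2 stands above both other labels, as for INSIG1 at 81.9 to 89.3 CPM, and for the chemokines SM4 is lowest, as for CCL28 at 109 to 116 CPM.

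The position of NC differed between these groups of genes. NC was closer to SM2 than to SM4 for 39 of the 40 interferon genes called higher (97.5%) and for 11 of the 12 chemokine and cytokine genes called lower (91.7%). It was closer to SM2 for 1 of the 20 cholesterol genes called lower (5.00%). Over all 2518 called genes, NC lay closer to SM2 for 50.4%, and it lay between the means of both groups for 49.3%.

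Lineage and state markers also differed. In all 9 libraries genes typical of the gut were found beside those of the ovary. Of 23 tested gastrointestinal genes 11 were lower and 1 higher in SM4, with a median log2 fold change of -0.31. TFF1, a mucosal repair peptide, fell by 1.65-fold, lysozyme (LYZ) by 1.59-fold (51.9 to 32.7 CPM) and the carcinoembryonic antigen CEACAM5 by 1.58-fold. The intestinal factor CDX2 fell from 10.9, 10.3 and 11.6 CPM in SM2 to 9.47, 8.58 and 8.35 CPM in SM4 (log2 difference -0.31, adjusted p = 0.0203), a call lost in 3 of 17 other fits. FOXA3 rose (log2 fold change 1.12). Of 7 tested genes of the ovarian and müllerian lineage, FOXJ1, the master factor of ciliated cells, rose from 8.12, 8.34 and 7.66 CPM to 18.03, 18.3 and 19.02 CPM (2.29-fold), the surface antigen mesothelin (MSLN) rose by 1.62-fold from 33.3, 32.04 and 36.6 CPM to 55.5, 56.1 and 53.8 CPM, and the CA125 gene MUC16 fell by 2.12-fold. This last gene varied within both groups, at 23.2, 29.9 and 16.998 CPM in SM2 and 14.1, 8.18 and 10.9 CPM in SM4, and PAX8 was not called.

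Of 20 tested mesenchymal genes 9 were lower and 2 higher. Vimentin (VIM, chr10:17228241-17237593), the intermediate filament of mesenchymal cells, was at 42.6, 41.6 and 45.0 CPM in SM2, 14.7, 15.3 and 12.2 CPM in SM4 and 6.296, 5.74 and 4.71 CPM in NC. All 3 groups were apart, with SM4 nearer to NC (3.05-fold lower than SM2, log2 fold change -1.61, adjusted p = 9.37e-11). VIM-AS1 fell with it, from 2.15, 3.06 and 3.02 CPM to 0.2796, 0.317 and 0.312 CPM. The collagen cross-linker LOXL2 fell from 47.9, 48.4 and 48.2 CPM in SM2 to 18.9, 19.9 and 18.02 CPM in SM4 (2.54-fold), and the repressor ZEB1 fell from 5.71, 5.33 and 5.57 CPM to 3.09, 2.39 and 3.63 CPM (1.83-fold). PMP22, LOX and SNAI2 fell as well, and LOXL1 (log2 fold change 0.57) and SPARC (0.66) rose. The epithelial list did not mirror this, with 3 of 22 higher (the factors OVOL1, 0.42, and GRHL1, 0.21, and the desmosome gene DSP, 0.29) and 4 lower, among them OVOL2 (log2 fold change -0.61) and the tight junction gene CLDN3 (-0.49). Of 17 keratins tested, KRT4 (log2 fold change 0.91) and KRT13 (0.33) rose and KRT81 (-1.41) and KRT23 (-0.39) fell. That is 11.8% each way, against 7.99% higher and 8.80% lower over protein-coding genes.

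Genes of adhesion and matrix changed in both directions. Laminins and other matrix glycoproteins had 6 of 15 higher and 1 lower, including LAMB1 (1.32-fold, 128 to 168 CPM) and LAMA3 (1.31-fold, 75.7 to 99.2 CPM), laminin subunits of basement membrane. Collagens had 5 of 19 lower by edgeR and 0 higher by edgeR, at an unadjusted p below 0.05 or by DESeq2. Of 38 tested integrins and adhesion molecules 10 were higher and 8 lower. VCAM1, which binds leukocyte integrins, rose from 4.99, 4.16 and 4.58 CPM in SM2 to 9.74, 9.84 and 11.3 CPM in SM4 (2.25-fold, adjusted p = 3.06e-06), and NC held 0.707, 0.313 and 0.564 CPM. VCAM1 is also expressed by endothelium, whose marker sum moved with the groups, from 8.89 to 10.2 CPM in SM2 to 14.1 to 16.8 CPM in SM4. Most of that sum was PECAM1, while CDH5, KDR and TEK stayed at or near 0. TIE1 was also called higher, but from 0.083 to 0.33 CPM on average, and that call held in 12 of 15 other fits. ITGA3, the laminin receptor subunit, rose by 1.29-fold and NECTIN4 by 1.44-fold, whereas the leukocyte-type subunit gene ITGB2 fell by 1.33-fold. Without the third SM4 library 5 matrix genes were called higher in place of 9, and 4 adhesion genes were called lower in place of 8 without the first SM4 library and 5 without the third.

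Growth factor signalling showed few uniform shifts. EGFR, the receptor of EGF, was at 519, 523 and 443 CPM in SM2 and 717, 678 and 696 CPM in SM4, without overlap (1.41-fold higher, adjusted p = 1.37e-06). Its ligand EGF rose by 1.32-fold and its ligand AREG fell by 1.32-fold. Of 10 tested ERBB genes 4 were higher and 1 lower (2 higher without the second SM4 library). Immediate-early genes, which are switched on within minutes of growth or stress signals, had 13 of 36 lower and 3 higher. JUN fell from 36.2, 39.6 and 35.8 CPM in SM2 to 22.6, 25.9 and 25.9 CPM in SM4 (1.501-fold), EGR1 by 1.31-fold, NR4A1 by 1.45-fold and the phosphatase DUSP1 by 1.48-fold. DUSP6 and SPRY4, feedback inhibitors of ERK signalling, rose (log2 fold changes 0.28 and 0.21).

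Of 10 targets of YAP and TEAD, effectors of the Hippo pathway, 6 were lower and 1 higher. CCN1 fell from 82.1, 79.4 and 78.8 CPM in SM2 to 56.5, 57.8 and 58.6 CPM in SM4 (1.39-fold), CCN2 fell by 1.505-fold and ANKRD1 by 1.38-fold. The TEAD cofactor VGLL3 fell by 1.45-fold and VGLL1 rose by 1.48-fold. In the TGF-beta and BMP list 9 of 39 were lower and 5 higher. BMP2 was at 4.16, 5.33 and 4.999 CPM in SM2 and 1.27, 0.902 and 1.35 CPM in SM4 (4.14-fold lower), and its extracellular antagonist NOG was at 3.74, 4.39 and 5.02 CPM in SM2 and 1.73, 1.23 and 1.39 CPM in SM4 (3.03-fold lower). The activin subunit gene INHBA fell by 1.48-fold, while the stress cytokine GDF15 rose by 1.38-fold. The 5 called higher became 3 without the second or the third SM2 library, 2 without the first or the second SM4 library and 1 without the third. Of 23 Notch genes, NOTCH3 (log2 fold change 0.45), LFNG (0.30), NOTCH1, RBPJ and DTX4 were higher and NOTCH4 (-0.57) and DLL1 lower, and 2 were called higher without the second SM4 library and 3 without the third. Wnt genes had 2 of 33 higher, TCF7 (log2 fold change 0.39) and WNT7B (0.29), and 4 lower, TCF7L1 (-0.68), DKK3 (-0.66), NKD1 (-0.48) and LGR4 (-0.36). That is 6.06% higher and 12.1% lower, near the shares over protein-coding genes (7.99% and 8.80%).

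Stress and metabolic genes were mostly lower where called. In the unfolded protein and ATF4 list 12 of 39 were lower and 1 higher. The chaperone gene HSPA5 fell slightly (log2 fold change -0.13) and the factor XBP1 too (-0.19), MANF fell by 1.24-fold, and of the ATF4 targets VLDLR fell by 1.88-fold and the cystathionine enzyme CTH by 1.64-fold. PHGDH, the first enzyme of serine synthesis, rose from 98.5, 99.4 and 107 CPM in SM2 to 133, 142 and 143 CPM in SM4 (1.37-fold). Glycolysis and hypoxia genes had 9 of 38 lower and 2 higher, with 4 lower without the first SM4 library and 5 without the second SM2 library. LDHA, which turns pyruvate into lactate, fell from 2337, 2245 and 2301 CPM to 1789, 1888 and 1827 CPM (1.25-fold), NDRG1 by 1.54-fold and the oxygen sensor EGLN3 by 1.31-fold. Of 25 NRF2 genes 5 rose, led by the cystine transporter SLC7A11 (155, 159 and 138 CPM in SM2 and 222, 205 and 204 CPM in SM4, 1.395-fold) and including NQO1 and GCLM. AKR1B10 fell, and 3 were called higher without the second SM4 library or the first SM2 library.

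Genes of proliferation and repair changed by small amounts, and more were called higher than lower. Mitosis genes had 5 of 30 higher (16.7%) and 1 lower, and replication genes 4 of 35 higher (11.4%) and 1 lower. Homologous recombination genes had 5 of 31 higher (16.1%) and 1 lower. Over protein-coding genes 7.99% were called higher and 8.80% lower. The median log2 fold changes of these lists were 0.02, 0.03 and 0.08. MKI67 was at 510.4, 542 and 428 CPM in SM2 and 595, 545 and 565 CPM in SM4 (log2 difference 0.20, adjusted p = 0.0376) and BIRC5, the survivin gene, fell (-0.23). Without the first SM4 library 0 mitosis genes, 1 replication gene and 1 recombination gene were called higher by edgeR, and without the third these counts were 0, 2 and 2. The other left-out SM2 and SM4 libraries gave 2 to 6, 2 to 6 and 3 to 6. Calls that held in every fit were those of E2F2 (1.401-fold higher), CHEK1 (1.17-fold higher), BIRC5 and GINS4 (1.21-fold lower).

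Ribosomal protein genes had 30 of 80 lower by edgeR and 0 higher by edgeR, at an unadjusted p below 0.05 or by DESeq2, with a median log2 fold change of -0.14. These transcripts are short, and the third SM2 library, in which short genes stood high, moves with this result. Without it, 20 were lower and 3 higher. Without the first SM4 library 8 were lower, and without the third 13. Oxidative phosphorylation genes had 6 of 79 lower and 0 higher by edgeR, with 1 higher at an unadjusted p below 0.05 and 0 by DESeq2. Without the third SM2 library 3 of them were lower and 4 higher, without the first SM2 library 13 were lower, and without the first or the third SM4 library 3 and 2 were, so no direction is given for these genes. SR and hnRNP splicing factors (2 higher and 1 lower of 36), proteasome genes (3 and 1 of 37) and histone genes (0 and 1 of 43) had few called members. So had zinc finger genes of chromosome 19 (10 and 7 of 174, and 5 and 3 without the first SM4 library). In these 4 lists 8.33%, 10.8%, 2.33% and 9.77% were called, against 12.8% of all tested genes and 16.8% of protein-coding genes. Of 16 p53 targets 2 were higher and 1 lower, or 18.8% called, near the share of protein-coding genes.

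Transport and secretory genes included several large single changes. Of 21 tested ion transport genes 5 were higher and 3 lower, with CFTR lowest and the potassium channel KCNN4 (1.68-fold) and ANO1 (98.8, 99.7 and 90.8 CPM in SM2 and 158, 164 and 156 CPM in SM4) among those that rose. The carbonic anhydrases, which interconvert carbon dioxide and bicarbonate, had 3 of 7 lower by edgeR and 0 higher by edgeR, at an unadjusted p below 0.05 or by DESeq2. CA2 was at 32.5, 31.2 and 33.1 CPM in SM2 and 21.4, 22.2 and 20.2 CPM in SM4 (1.51-fold lower, adjusted p = 6.61e-07), CA8 fell by 1.901-fold and CA12 by 1.61-fold. ABCG2, a drug efflux pump, rose by 1.32-fold, and the organic cation transporter SLC22A3 fell by 2.07-fold. Over 239 solute carriers tested 21 were higher (8.79%) and 26 lower (10.9%), near the shares of all protein-coding genes (7.99% and 8.80%). Of the solute carriers 15 were lower without the first SM4 library and 17 without the second SM4 or the second SM2 library. Of 30 apoptosis genes 2 were higher (6.67%) and 3 lower (10.0%), also near the shares of protein-coding genes. Among those that fell were BCL2A1 (log2 fold change -1.18) and BIK (-0.45).

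Several smaller lists also held both directions. For scale, 7.99% of protein-coding genes were called higher and 8.80% lower. Of 14 coagulation genes 2 were higher and 3 lower, with factor X (F10) lower by 2.001-fold and the protease inhibitor SERPINA1 higher by 1.19-fold. Of 15 complement genes 2 were higher, the inhibitor CFI (1.74-fold) and C5 (1.72-fold), and 4 lower, among them CLU (log2 fold change -0.37) and C3 (-0.17). Of 11 tested genes of VEGF and semaphorin signalling, SEMA3A (log2 fold change 0.49) and SEMA3F (0.32) rose, and the co-receptors NRP1 (-0.24) and NRP2 (-0.15) and the kinase PTK2 fell. The NRP2 call held in only 7 of 17 other fits. Tetraspan proteins, which organise membrane domains, had TSPAN8 (log2 fold change -0.62) lowest and TM4SF18 (0.73) highest, with 2 of 19 higher and 4 lower. In prostaglandin and kynurenine metabolism 3 of 20 were lower, the receptor PTGER2, the prostaglandin-degrading HPGD (log2 fold change -0.55) and KYNU (-0.26), and 0 were higher by edgeR, with 2 higher at an unadjusted p below 0.05 and 0 by DESeq2. Of 27 tested HOX genes, which keep positional identity, HOXA9 (log2 fold change 0.79), HOXA2 (0.52) and HOXA3 (0.18) rose and HOXB9 (-0.33) fell. Of 11 ADAM and ADAMTS proteases, ADAMTS9 fell from 1.66, 1.66 and 1.698 CPM in SM2 to 0.197, 0.301 and 0.312 CPM in SM4 (6.19-fold). Without the first SM4 or the second SM2 library 1 complement gene was called lower.

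The study names 5 genes as METTL3 targets, chosen partly on these libraries, so their direction here is not independent evidence. With the labels in doubt, the values of these genes do not show which way they move when METTL3 is lowered. OAS1, OAS2 and CA2 are described above. ADAM23, a membrane protein of the disintegrin family without protease activity, was at 4.58, 4.49 and 4.26 CPM in SM2, 1.79, 3.15 and 2.67 CPM in SM4 and 7.16, 6.36 and 6.25 CPM in NC (1.749-fold lower in SM4 than in SM2, adjusted p = 0.00131). By the labels, both knockdown groups lay below NC, whereas the paper reports more ADAM23 RNA after METTL3 knockdown. SM4, the group with the most METTL3 RNA, had the least ADAM23 RNA. With the labels in doubt, the order of the groups is therefore no conflict with the paper. HLA-G was at 3.502, 2.93 and 4.02 CPM in SM2 and 4.06, 5.09 and 5.42 CPM in SM4 (1.39-fold higher, adjusted p = 0.0496), and the call was lost in 7 of 17 other fits. HLA-G shares sequence with other HLA genes, so its counts are uncertain.

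**Figure D4:**
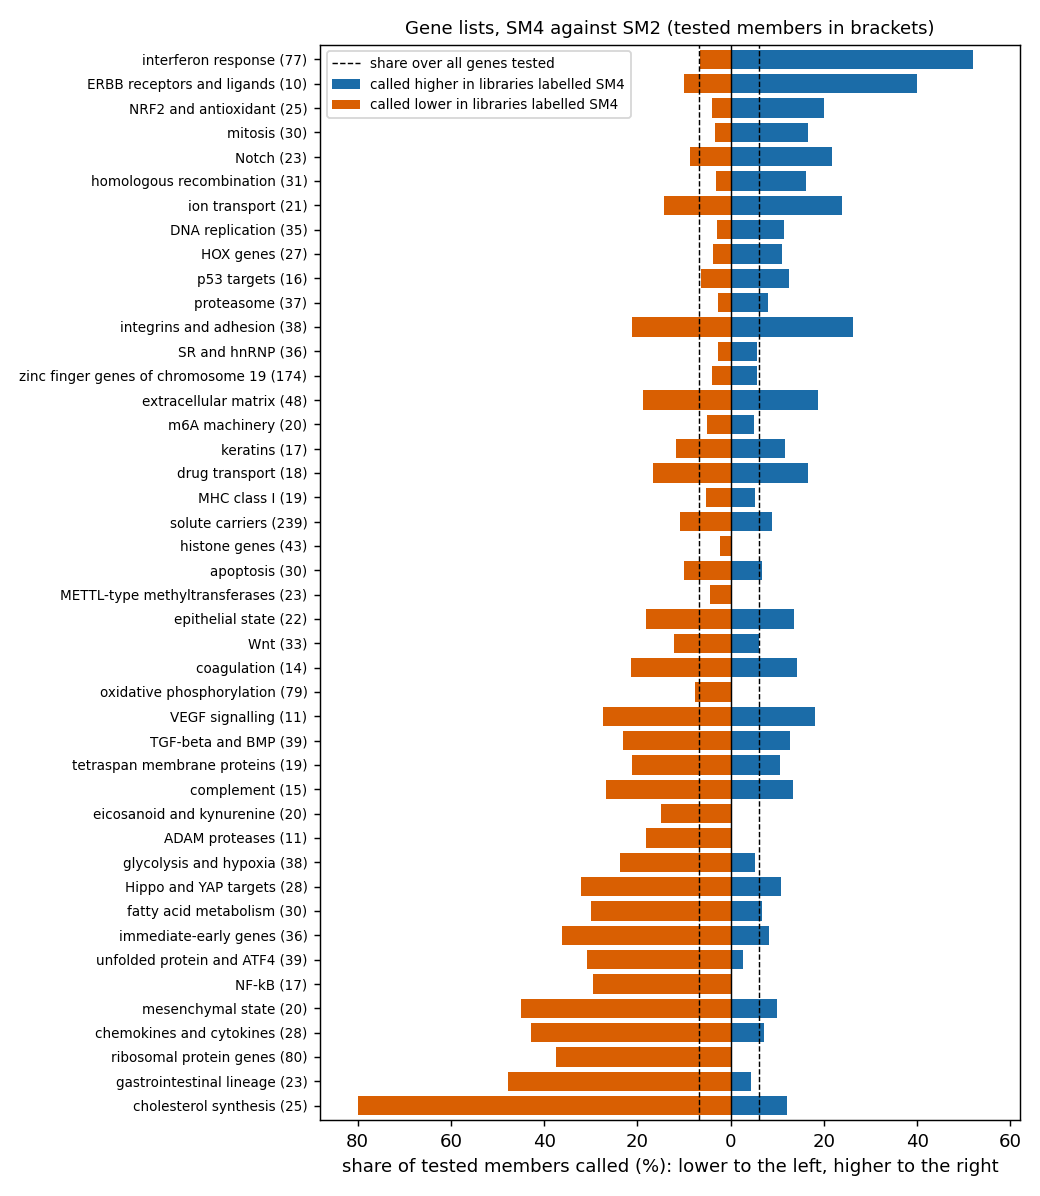
Share of tested members (in %, horizontal axis) called lower (left) and higher (right) in the libraries labelled SM4, for each gene list with at least 10 tested members (their number in brackets). Dashed lines mark the shares over all tested genes, 6.76% lower and 6.04% higher; the interferon list extends farthest right (52.0%) and the cholesterol list farthest left (80.0%).

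Called genes were unevenly spread over chromosomes. On chromosome 8, 121 of 716 tested genes were lower and 18 higher in SM4, and on chromosome 11, 167 of 1099 were higher and 57 lower. When the chromosomes were divided after the data were seen, each imbalance lay mainly in one stretch. On chromosome 11 from 50 Mb, 132 of 737 genes were higher (17.9%) and 23 lower, with a median log2 fold change of 0.10 over 550 protein-coding genes, of which 72.4% were positive. Below 50 Mb, 35 were higher and 34 lower of 362. On chromosome 8 from 30 Mb, 108 of 555 were lower (19.5%) and 13 higher, with a median of -0.11 over 361 protein-coding genes, of which 76.7% were negative. Below 30 Mb, 13 were lower (8.08%) and 5 higher of 161, with a median of 0.003 over 108 protein-coding genes. On all other chromosomes together 5.62% were higher and 6.45% lower, but single chromosomes differed. Chromosome X had 16 of 655 higher and 56 lower, chromosome 6 had 40 of 1054 and 91, and chromosome 1 had 126 of 1960 and 94. The 132 higher genes of chromosome 11 became 85 without the third SM4 library. The 108 lower genes of chromosome 8 became 69 and 70 without the first or the third.

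The shift was seen in each library. Relative to the mean of SM2, the median protein-coding gene of chromosome 11 from 50 Mb was at 0.091, 0.089 and 0.104 on the log2 scale in the libraries labelled SM4 and at 0.048 to 0.064 in NC. On chromosome 8 from 30 Mb it was at -0.100, -0.110 and -0.116 in SM4 and at -0.045 to -0.072 in NC. Several genes named above lie in these stretches. ANO1, FGF19, CST6, OVOL1 and CHEK1, all higher, are on chromosome 11 beyond 50 Mb. CA2, CA8, EXT1, NDRG1 and GINS4, all lower, are on chromosome 8 beyond 30 Mb, as is SDC2, which rose. The sizes of the changes in ANO1 (log2 fold change 0.72) and CA2 (-0.60) were several times those medians. Of 268 stretches of 10 Mb with at least 15 protein-coding genes, 12 had a median above 0.08 and 15 one below -0.08.

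**Figure D5:**
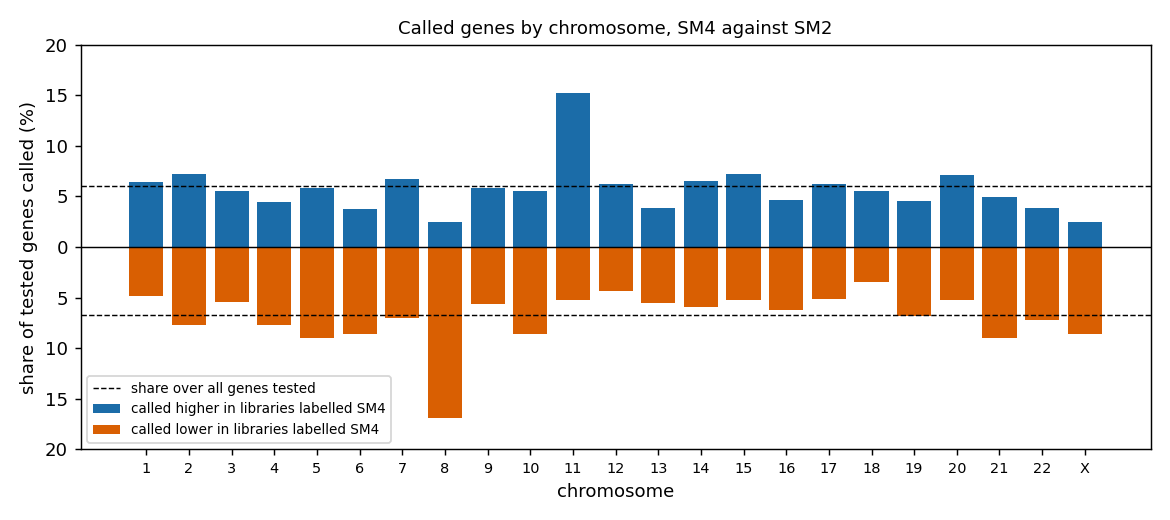
Share of tested genes (in %, vertical axis) on each chromosome (horizontal axis) called higher (above the zero line) and lower (below it) in the libraries labelled SM4, with dashed lines at the shares over all genes. Chromosome 11 reaches 15.2% higher and chromosome 8 reaches 16.9% lower.

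By gene class, 16.8% of protein-coding genes were called, 3.37% of long non-coding RNAs and 3.41% of pseudogenes. The share called higher grew with exonic length, from 3.48% in the shortest quintile of protein-coding genes to 11.9% in the longest quintile, and the share called lower fell from 10.8% to 6.89%. The median log2 fold change went from -0.06 in the shortest quintile to 0.04 in the longest. The third SM2 library differs from the others along the same axis, and removing a trend with gene length gave 2825 called genes, with 44 interferon genes higher and 21 cholesterol genes lower.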

How the data were processed

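The deposited table holds raw counts for 9 RNA-seq libraries (NC, SM2 and SM4, 3 each, grouped by title), with no normalization. Per the labels and methods, reads were trimmed with fastp, aligned to hg38 with HISAT2 and counted with featureCounts of Subread; versions, annotation and strand use are not given in the sources used here, and the library kit and read layout are given differently in the labels and the methods. Such processing can split or drop reads of near-identical genes, and the 37 mitochondrial genes had 0 counts. Of 60649 gene identifiers 60507 matched GENCODE v44, which gave symbols, coordinates and lengths.

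In R 4.3.3, genes were filtered with filterByExpr of edgeR 4.0.16 (minimum count 10), leaving 19674, scaled by TMM and tested with the quasi-likelihood F test in one model of all 9 libraries with the group alone. The contrast was SM4 minus SM2, with Benjamini-Hochberg adjustment. DESeq2 1.42.0, the tool of the study, was an alternative. On counts simulated from the fitted spread, with 1.5-fold or 2-fold changes in genes of at least 1 CPM, the fit recovered the changed genes in the right direction. Smaller changes, which most called genes had, were not simulated. Totals were 44103272 to 63693728 counts, so 1 CPM was 44.1 to 63.7 counts; counts are reads without molecular identifiers, so counting error is a lower limit.

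Named genes were METTL3 and the m6A genes, 5 targets named by the study, the 15 highest and 15 lowest called genes with a mean of at least 1 CPM and no overlap between the groups, the 8 highest and 8 lowest with a mean of at least 100 CPM, and up to 4 called members of each list in each direction, plus members that define a list. Further list members are named where they complete a count. Some genes that this rule names are not reported here. The comparison, the lists and their members were chosen with earlier results of these data known, and no set test was run. No column of the table was left unused.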

Additional observations from a re-analysis of the deposited data

How the results depend on the processing

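The edgeR count of 2518 called genes stayed between 2089 and 2825 under DESeq2 (2793), its size factors, upper-quartile scaling, no filter on low counts, a mean of at least 1 CPM, the 6 libraries alone (2089) and removal of a length trend (2825). It was 1393 at an adjusted p below 0.01 and 1574 to 2748 when 1 library was left out, lowest without the first SM4 library. The number with at least a 2-fold difference, 155, was 79 under DESeq2, 77 with a mean of at least 1 CPM, 102 at an adjusted p below 0.01, 27 when tested against a 2-fold change with glmTreat, and 130 to 172 with 1 library left out. The share of called genes higher in SM4, 47.2%, was 49.2% with upper-quartile scaling and 45.8% to 49.7% with 1 library left out. The log2 fold change of METTL3 stayed between 0.59 and 0.66 and was called in every fit. No called gene named in the report changed sign in any fit, whereas the medians of several gene lists near 0 did, among them that of oxidative phosphorylation without the third SM2 library. Of the values for single genes and lists, 5251 kept their direction and call or stayed within 1.5 times (counts) or the spread (medians), 68 lost and 21 gained a call, and 313 moved. The causes of these movements were not tested.

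The replicate numbers did not pair the libraries: deviations of same-numbered SM2 and SM4 libraries correlated at -0.05, -0.10 and 0.10, and a replicate block gave 2815 called genes, 153 of them 2-fold. Standard errors were wide for some low genes: TNF, near 1 CPM, had a log2 difference of -0.73 with a standard error of 0.246 and missed the threshold (adjusted p = 0.0554, edgeR), against a standard error of 0.0538 for METTL3. Which hairpin each label stands for remains in doubt, and so does which label is the control. The strand setting of the counting is not given in the sources used here.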
